A study of Mus musculus with 10 samples.

Results

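The regions described here are the 3551 nuclear sites, of 39655 in the authors' table (8.95%), that were more open in untreated pyruvate dehydrogenase knockout Th17 cells than in untreated control cells. They were chosen by their values in the untreated libraries. Each library was divided by its own median over sites, and a site was kept when the lowest of its 3 untreated knockout values was more than 1.5 times the highest of its 3 untreated control values. They are called gained sites below, and a level is given as a multiple of the library's median site. The libraries from cells grown with acetate did not enter this choice and are the ones in which the gained sites were tested.

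ATAC-seq reads how open chromatin is, from how often a transposase inserts adapters into a stretch of DNA. Pyruvate dehydrogenase makes acetyl-CoA from pyruvate in mitochondria. Citrate made from it can leave the mitochondria and be split to give acetyl-CoA for lipid synthesis and for histone acetylation, which goes with open chromatin. Acetate can also be turned into acetyl-CoA outside mitochondria, by Acss2. Th17 cells are CD4+ helper T cells that make interleukin-17 under the control of the nuclear receptor RORγt.

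The knockout cells (KO) were from PDHfl/fl mice that carried CD4 Cre, and the control cells (WT) were from PDHfl/fl mice without it. Cre driven by Cd4 regulatory sequence acts in T cells from the thymus on, so Cre was active before culture. Naive CD4+ cells of spleen and lymph nodes were isolated with magnetic beads and grown for 3 days under Th17 conditions (anti-CD3, anti-CD28, IL-6, TGFβ and anti-IFNγ). Untreated cells gave 3 libraries of each genotype, and cells kept in 10 mM sodium acetate gave 2 of each. The labels do not say whether replicates were separate animals, and p-values then measure only the spread between these libraries. The sites are numbered as differential in the table and are taken as selected on these samples, acetate libraries included.

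The libraries held 3500172 to 13356560 reads in sites, and the shallowest, WT acetate 1, had a median of 57 reads per site and 13 per gained site. All 7 Th17 markers checked had sites in the table (41 sites), and 6 of these were gained, all at Cd4. Th17 marker sites took 0.134 to 0.156% of nuclear signal in KO untreated and 0.0836 to 0.106% in WT untreated libraries. These shares include the Cd4 sites, of which the strongest averaged 20.6 in KO untreated, against 3.78 in WT untreated. At Cd4, reads from the Cre transgene, described below, cannot be told apart. The share without Cd4 was not worked out. Neither CD8 T cell marker had any sites, and 2 of 5 B cell, 2 of 4 myeloid, 2 of 3 NK and innate lymphoid and 3 of 3 γδ T cell markers had some. B cell marker sites took 0.0167 to 0.0196% of nuclear signal in KO untreated and 0.0139 to 0.017% in WT untreated libraries, and γδ marker sites 0.00925 to 0.00993% in KO untreated and 0.00767 to 0.00846% in WT untreated libraries. Myeloid marker sites took 0.0159 to 0.0169% in KO untreated and 0.0148 to 0.0172% in WT untreated libraries, and NK and innate lymphoid sites 0.0227 to 0.0244% in KO untreated and 0.0191 to 0.0242% in WT untreated libraries. Of all nuclear sites 8.95% were gained. Among these sites of other cell types, 4 of 15 for B cells (at Ebf1 and Pax5) and 1 of 5 for myeloid cells (Itgam) were gained sites. So were 3 of 10 for NK and innate lymphoid cells (Zbtb16) and 2 of 7 for γδ T cells (Blk). The part of other cell types in the results was not tested. In bulk libraries fewer cells with an open site and a less open site in each cell cannot be told apart.

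Few gained sites lay at promoters, and sequence was at hand for those alone. Of the 3551 sites, 27 shared at least 100 bases with a promoter window of 300 bases, from 250 before to 50 after a gene's start, in RefSeq sequence of the GRCm38.p6 build. The table of windows is not complete. The 5 windows below were picked after their values were seen. The first 2 hold the promoter site of the longest run of gained sites and the promoter site with the largest untreated ratio, Ackr3 and Iqca share another run, and Loxl4 is one of the few with many CpG. Each is written 5′ to 3′ on the gene's strand, and capitals mark the bases that the gained site covers.
Gm38326, a long non-coding RNA gene (chr3:60788111-60788410, plus strand): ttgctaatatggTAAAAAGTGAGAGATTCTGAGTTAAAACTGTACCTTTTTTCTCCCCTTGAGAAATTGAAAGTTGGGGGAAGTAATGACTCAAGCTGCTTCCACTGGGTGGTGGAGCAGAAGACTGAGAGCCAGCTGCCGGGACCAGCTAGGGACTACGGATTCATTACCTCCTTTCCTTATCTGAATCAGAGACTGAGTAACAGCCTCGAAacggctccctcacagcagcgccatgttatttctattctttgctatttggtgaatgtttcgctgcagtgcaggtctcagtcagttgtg
6330409D20Rik (chr2:32740967-32741266, minus strand): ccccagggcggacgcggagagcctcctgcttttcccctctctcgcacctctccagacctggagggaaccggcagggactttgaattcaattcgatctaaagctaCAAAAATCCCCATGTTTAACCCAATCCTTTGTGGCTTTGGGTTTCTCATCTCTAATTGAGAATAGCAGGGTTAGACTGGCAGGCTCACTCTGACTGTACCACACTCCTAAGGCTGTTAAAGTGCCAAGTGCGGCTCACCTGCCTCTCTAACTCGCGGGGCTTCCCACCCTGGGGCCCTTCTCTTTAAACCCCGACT
Ackr3, an atypical chemokine receptor that takes up CXCL12 (chr1:90203730-90204029, plus strand): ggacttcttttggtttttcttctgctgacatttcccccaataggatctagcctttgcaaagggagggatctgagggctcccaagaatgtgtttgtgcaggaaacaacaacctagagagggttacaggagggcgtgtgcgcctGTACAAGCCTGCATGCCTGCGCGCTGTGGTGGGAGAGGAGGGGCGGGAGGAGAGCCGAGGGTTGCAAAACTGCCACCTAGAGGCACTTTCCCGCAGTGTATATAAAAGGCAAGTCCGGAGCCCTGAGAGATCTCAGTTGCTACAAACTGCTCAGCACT
Iqca (chr1:90153387-90153686, minus strand): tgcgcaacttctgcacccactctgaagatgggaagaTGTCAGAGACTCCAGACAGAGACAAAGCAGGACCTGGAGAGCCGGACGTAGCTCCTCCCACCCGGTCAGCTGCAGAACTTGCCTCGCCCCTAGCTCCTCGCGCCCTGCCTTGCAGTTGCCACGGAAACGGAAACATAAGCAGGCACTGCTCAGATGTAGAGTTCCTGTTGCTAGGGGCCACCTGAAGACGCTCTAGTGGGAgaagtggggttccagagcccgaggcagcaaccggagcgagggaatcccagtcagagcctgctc
Loxl4, a lysyl oxidase that cross-links collagen (chr19:42612757-42613056, minus strand): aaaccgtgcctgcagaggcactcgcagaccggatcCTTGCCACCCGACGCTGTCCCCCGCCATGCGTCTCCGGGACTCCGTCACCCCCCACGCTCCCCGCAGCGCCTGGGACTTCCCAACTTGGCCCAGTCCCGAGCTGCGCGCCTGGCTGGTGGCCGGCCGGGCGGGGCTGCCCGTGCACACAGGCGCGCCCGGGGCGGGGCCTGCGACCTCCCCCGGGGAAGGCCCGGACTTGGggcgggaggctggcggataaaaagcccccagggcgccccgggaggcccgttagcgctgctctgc

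These promoters were poor in CpG. The 28 windows that held a gained site, for 27 genes, had a median GC content of 51.7% and a median CpG observed-to-expected ratio of 0.264. The 6602 windows that held any nuclear site had 62.3% GC and a ratio of 0.808, and all 32851 windows had 52.7% and 0.384. A ratio of 0.6 or more, the usual mark of a CpG island, was met by 3 of the 28 windows (10.7%), Loxl4 among them with 0.763, against 80.5% of the windows with any site. Gm38326 had 0.375, 6330409D20Rik 0.473, Ackr3 0.374 and Iqca 0.487.

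Short motifs were searched on both strands of the whole window, and none of the searched letters is proof of binding. The AP-1 motif TGANTCA was in 5 of the 28 windows (17.9%), against 4.97% of windows with any site and 7.81% of all windows. It was in the Gm38326 window printed above. The RUNX motif TGTGGT was in 7 (25%), against 12.7% and 16.8%, among them 6330409D20Rik and Ackr3. The ETS motif CCGGAA was in 1 (3.57%), against 35.2% of windows with any site and 14.9% of all. The ROR half-site AGGTCA was in 3 (10.7%), against 11.8% and 16.3%, TATAA in 7 (25%), against 11.1% and 24.9%, and CCAAT in 8 (28.6%), against 37.9% and 37.4%. With 28 windows these shares are descriptions of a small set.

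The promoter sites differed from each other in what they did with acetate. The Gm38326 site (chr3:60788123-60788323) stood at 8.99, 10.6 and 9.41 in KO untreated, against 3.18, 3.9 and 3.63 in WT untreated. With acetate it stood at 6.64 and 6.41 in KO, against 4.53 and 3.96 in WT, a log2 difference of 0.62 ± 0.15 (SE). The KO libraries were above the WT libraries in both conditions, untreated because of the rule, but limma gave no call with acetate (adjusted p = 1.0). The 6330409D20Rik site (chr2:32740962-32741162) stood at 2.1, 2.59 and 2.06 in KO untreated, against 0.163, 0.2 and 0.197 in WT untreated. With acetate its KO values, 0.23 and 0.223, lay next to the WT values, 0.246 and 0.232. Of the 27 promoter sites, 9 had both acetate KO values above both WT values, which 13.8% of nuclear sites had, and 1, at 6330409D20Rik, had both below, which 15.8% of nuclear sites had.

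Across all 3551 gained sites, the median level was 0.777, 0.851 and 0.848 in KO untreated libraries 1, 2 and 3, against 0.196, 0.239 and 0.211 in WT untreated libraries 1, 2 and 4. So the typical gained site was a weak site in WT cells and a site near the median in untreated KO cells. From 36.2 to 41.8% of them reached the median site in KO untreated libraries, against 3.66 to 6.67% in WT untreated libraries. Together they held 6.54 ± 0.331% of the nuclear signal in KO untreated (SD, n = 3) and 1.94 ± 0.33% in WT untreated (n = 3). The ratio of group means had a median of 3.65, with 2.57 at the 5th and 7.27 at the 95th percentile. These values chose the sites and are given without a test.

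Within this table of selected sites, the gained sites stood apart from the rest. After division by the library medians, 10339 nuclear sites had an untreated log2 ratio between 0 and 0.5, only 10 lay between 0.5 and 1, and 614 lay between 1 and 1.5. On the values as deposited, the median site had a log2 ratio of -0.85, KO over WT, a fold of 0.554. All 3551 gained sites had a higher deposited mean in KO, and they made up 96.3% of the 3689 nuclear sites that did. Only 12 nuclear sites had a deposited log2 ratio within 0.25 of 0. On the deposited values the rule would have kept 1545 sites, all of them among the 3551. The mirror rule, lowest WT above 1.5 times the highest KO, found 259 sites (0.653%).

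**Figure D1:**
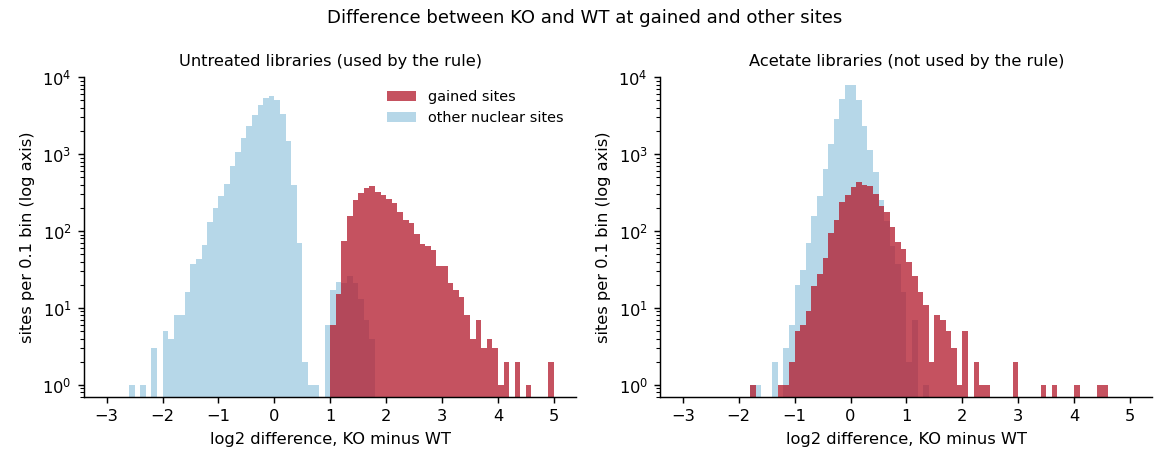
Number of sites (log axis) by log2 difference between KO and WT in bins of 0.1, untreated on the left and with acetate on the right, for gained sites (red) and other nuclear sites (blue). Untreated values are log2 ratios of group means, and acetate values are limma differences. Untreated, the gained sites lie beyond a nearly empty band between 0.5 and 1, and those values chose them; with acetate they overlap the other sites, shifted to a median of 0.22.

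Near the threshold, the site just inside with the smallest ratio (chr5:112051023-112051223) stood at 0.5, 0.683 and 0.374 in KO untreated, against 0.248, 0.245 and 0.143 in WT untreated. Just outside, the site nearest to Fgf4 (chr7:144853593-144853793) stood at 1.12, 0.98 and 0.869 in KO untreated, against 0.314, 0.581 and 0.381 in WT untreated. The 6 sites nearest to the threshold, 3 on each side, had ratios of 1.5 to 1.51 from the lowest KO to the highest WT value. Their ratios of means were 2.33 to 3.01, at the low end of the gained sites, which had 2.57 at the 5th percentile and a median of 3.65.

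With acetate, the level of the gained sites in KO was near that of WT cells. Their median level was 0.293 and 0.298 in KO acetate, against 0.228 and 0.266 in WT acetate, and they held 2.72 ± 0.0778% of the nuclear signal in KO acetate and 2.31 ± 0.311% in WT acetate (SD, n = 2 each). At the median gained site, KO acetate stood at 0.346 of KO untreated, with quartiles of 0.242 and 0.485, while WT acetate stood at 1.12 times WT untreated. The sites were chosen for high KO and low WT values untreated, so lower KO values and higher WT values in other libraries are partly fixed by the choice, and these comparisons with untreated libraries are descriptions with no test. At 3357 of them (94.5%, against 30.2% of nuclear sites) both KO acetate values lay below all 3 KO untreated values. Both KO acetate values reached the lowest KO untreated value at 88 sites (2.48%, against 53.6% of nuclear sites). At 1478 sites (41.6%, against 16.1% of nuclear sites) both were still above all 3 WT untreated values.

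The treatment is not the only difference between these libraries. All 4 acetate columns and WT untreated 4 have names that start with ATAC2, and the KO untreated columns all start with ATAC1, so in KO the treatment and whatever the prefix stands for cannot be told apart. In WT untreated, where both prefixes occur, the median level was 0.211 in the ATAC2 library and 0.196 and 0.239 in the ATAC1 libraries. With the ATAC1 untreated libraries alone, the rule found 3672 sites, all 3551 among them. The share of signal at the 2 mitochondrial sites, which were not candidates, was 1.18 to 2.01% in KO untreated, 0.207 to 0.658% in WT untreated, 0.228 and 0.334% in KO acetate, and 0.201 and 0.463% in WT acetate. It was high in the same 3 libraries as the gained sites, and its part in the result was not tested.

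**Figure D2:**
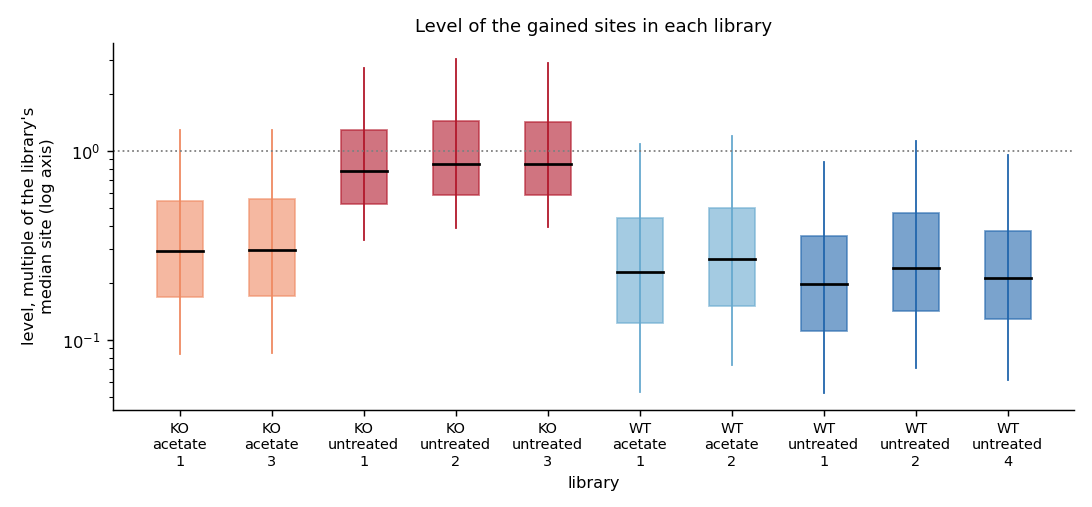
Level of the 3551 gained sites in each library as a multiple of the library's median site (log axis): black line, median; box, quartiles; thin line, 5th to 95th percentile; dotted line, the median site. The 3 KO untreated medians lie between 0.777 and 0.851, and the other 7 between 0.196 and 0.298.

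A few gained sites behaved otherwise. All 4 acetate values exceeded all 3 KO untreated values at 2 sites (24.9% of nuclear sites did so), 1 at Klk1b9, a kallikrein-family serine protease gene, and 1 with no protein-coding gene within 50 kb. The Klk1b9 site (chr7:43975857-43976057) stood at 0.503 and 0.564 in KO acetate, against 0.343, 0.218 and 0.242 in KO untreated. In WT it stood at 0.526 and 0.592 with acetate, against 0.085, 0.103 and 0.102 untreated. It was thus higher with acetate in both genotypes. Both WT acetate values exceeded all 3 WT untreated values at 1008 gained sites (28.4%), against 16.4% of nuclear sites, and both lay below at 386 (10.9%), against 18.7%. The low WT untreated values that chose these sites partly fix that direction too, so it is given with no test.

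The acetate libraries also answer whether the difference between genotypes persisted there. KO against WT with acetate was tested with limma on those 4 libraries alone, over all 39657 sites, on log2 of the rescaled value plus 1. Of the gained sites 9 were called higher in KO at an adjusted p under 0.05 and none lower. The background was 0.0227% of all sites called higher and 0.0% lower, and all 9 sites called in the whole table were gained sites. At an unadjusted p under 0.05, 336 gained sites were higher and 17 lower, against 604 (1.52%) and 602 (1.52%) of all sites. The smallest adjusted p of any other gained site was 0.199. One library bears on the count: without WT acetate 2, which leaves the shallow WT acetate 1 alone in its group, 116 gained sites were called, and 192 sites in the table. In such a fit the spread comes from the other genotype and from limma's pooling over sites, and the lone library is assumed to vary like the rest.

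Below that threshold the gained sites leaned to KO. The log2 difference was above 0 at 2667 of them (75.1%), against 50.8% of nuclear sites, with a median of 0.22, against 0.00, and quartiles of 0.00 and 0.46. Both KO values lay above both WT values at 1259 (35.5%), against 13.8% of nuclear sites, and below at 207 (5.83%), against 15.8%. At the other 2085 the groups overlapped. The lowest KO value exceeded 1.5 times the highest WT value at 106 (2.99%), against 0.31%. On the deposited values, where the median of all sites was -0.15, the median of the gained sites was 0.07, and both KO values lay above both WT values at 736 (20.7%, against 4.63%). Without WT acetate 1 the median was 0.12, and without WT acetate 2 it was 0.30. At the median gained site the ratio of group means was 1.17 with acetate and 3.65 untreated. Sites of the mirror rule lay on the other side, with a median of -0.16 and both KO values below both WT values at 36.7%, and above at 6.56%.

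Most gained sites were weak with acetate, so the comparison with the other sites was split by level. Of the gained sites 2427 were among the weakest 20% of nuclear sites with acetate, at or below 0.42, where 34.4% had both KO values above both WT values, against 16.6% of the 5504 other sites there. The median difference was 0.24 for these gained sites and 0.01 for the other sites. Above that level the share was 37.6% of 1124 gained sites, against 10.7% of 30600 other sites, with medians of 0.18 for the gained and -0.01 for the other sites. Levels still differed within each group: the median acetate level was 0.195 for the gained and 0.326 for the other sites below the cut-off, and 0.695 for the gained and 1.39 for the other sites above it. The larger share for gained sites was seen in both groups, with level matched only this coarsely. On X, 79 of 640 sites (12.3%) were gained sites, and 25.3% of those had both KO values above, with a median of 0.12. Of all gained sites 35.5% had both above, and of nuclear sites 13.8%.

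The gained sites were also split by their untreated ratio, which chose them and whose low end the rule cut off. Split into 4 groups of equal size by untreated ratio, with median ratios of 2.79, 3.34, 4.05 and 5.65, the gained sites had acetate medians of 0.18, 0.22, 0.24 and 0.26. The share with both KO values above both WT values was 36.5, 36.2, 35.2 and 33.9%. Across 3538 sites at which both could be computed, r between the 2 log2 differences was 0.123 and rho 0.079, and r was 0.06 without the 9 called sites. Sites are not independent replicates, and the median acetate level was 0.601, 0.319, 0.216 and 0.145 along the 4 groups.

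**Figure D3:**
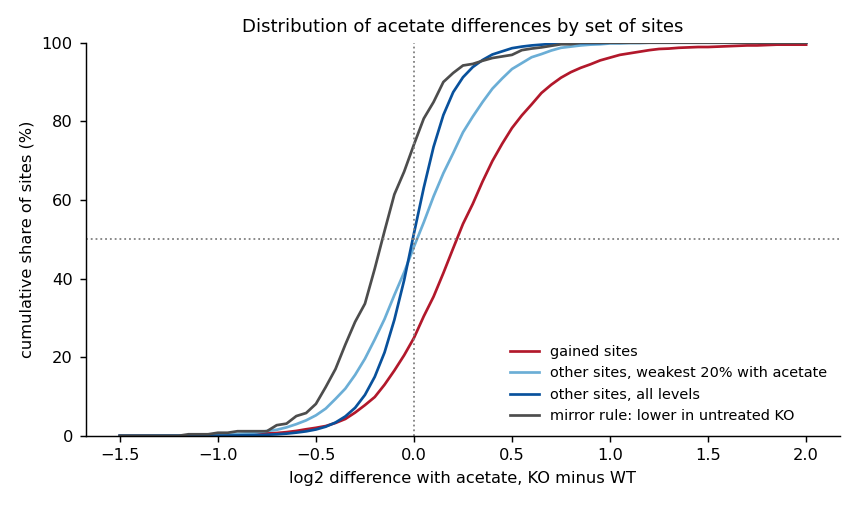
Cumulative share of sites (%) by log2 difference between KO and WT with acetate, for gained sites, other sites among the weakest 20% with acetate, all other sites and the sites of the mirror rule. The gained sites cross 50% at 0.22, the other sites near 0 and the mirror sites at -0.16.

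The 9 called sites lay in 2 places. Of the 9, 7 were at Cd4, the co-receptor of helper T cells, and beside its neighbour Lag3, an inhibitory receptor that binds MHC class II. The Cre transgene is driven by Cd4 regulatory sequence and was in KO only. Reads from transgene copies of that sequence and reads from the Cd4 locus cannot be told apart in these values.

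All 6 sites that overlap Cd4 (chr6:124864693-124888247) were gained, and the other 2 sites to which Cd4 is the nearest gene lie outside it and were not. The site with the largest difference (chr6:124879835-124880035) stood at 4.42, 3.96 and 4.26 in KO untreated, against 0.15, 0.129 and 0.034 in WT untreated. The acetate levels were 3.06 and 2.38 in KO, against 0.14 and 0.0858 in WT, a log2 difference of 4.53 ± 0.26 (limma, adjusted p = 1.63e-06). The groups were far apart in both conditions. The strongest site (chr6:124885264-124885464) stood at 21.6, 19.2 and 21.0 in KO untreated, against 3.69, 3.6 and 4.06 in WT untreated. In acetate libraries it measured 27.0 and 25 in KO, against 3.26 and 3.47 in WT, a log2 difference of 2.95 ± 0.13 (adjusted p = 1.5e-07). Unlike most gained sites, it was no lower in KO with acetate than without.

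The other 4 gained Cd4 sites were also higher in KO with acetate. The site at chr6:124882242-124882442 stood at 3.75 and 3.95 in KO acetate, against 0.211 and 0.245 in WT acetate (log2 4.04 ± 0.19). The site at chr6:124880802-124881002 stood at 1.16 and 0.745 in KO acetate, against 0.0351 and 0.0343 in WT acetate (4.49 ± 0.36), where the WT values rest on 2 and 8 reads. That at chr6:124887316-124887516 stood at 1.38 and 1.02 in KO acetate, against 0.0877 and 0.112 in WT acetate (3.5 ± 0.28). The last, chr6:124888183-124888383, lay over the end of the gene and stood at 5.32 and 4.47 in KO acetate, against 0.93 and 0.82 in WT acetate (2.47 ± 0.17). Their KO means were 3.85, 0.953, 1.2 and 4.9 with acetate, against 4.34, 1.13, 1.7 and 7.15 untreated, so unlike the strongest site they were lower in KO with acetate than without. All 4 passed in limma, with adjusted p of 1.5e-07, 4.73e-05, 4.73e-05 and 1.62e-05 in that order.

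The Lag3 site (chr6:124900561-124900761) lay 3.6 kb outside that gene. It stood at 7.03, 6.75 and 7.25 in KO untreated, against 1.42, 1.7 and 1.71 in WT untreated. With acetate it stood at 8.35 and 9.01 in KO, against 1.53 and 1.94 in WT, a log2 difference of 2.33 ± 0.17 (limma, adjusted p = 1.94e-05). The difference did not extend over the whole stretch. The site between Cd4 and this one (chr6:124895903-124896103) had an acetate difference of -0.02 ± 0.24 and an untreated log2 ratio of -0.22. The next 3 sites towards and at Lag3 had acetate differences of -0.35, -0.12 and -0.06 and untreated ratios of -0.35, -0.54 and -0.48, and none was called. At the other end of Cd4 the site at chr6:124864456-124864656 had 0.45 ± 0.33 with acetate and -1.33 untreated.

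The second place was on chromosome 3 and was also the longest run of gained sites. A run here is a row of neighbouring sites in the table that are all gained sites, and its length is its number of sites. This one held 17 sites over 672 kb (chr3:60362817-61035151), from upstream of Mbnl1, a splicing regulator, to P2ry1, a receptor for ADP. All 17 had a log2 difference above 0 with acetate. Of them 16 had both KO values above both WT values, against 35.5% of all gained sites and 13.8% of nuclear sites. The median was 0.75, against 1.74 untreated. Away from its called sites the differences were moderate: the Mbnl1 site at chr3:60441954-60442154 stood at 1.27 and 1.46 in KO acetate, against 0.667 and 0.79 in WT acetate (log2 0.90 ± 0.19, limma adjusted p = 0.94).

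The 2 called sites of this run were weak and more different with acetate than without. The site at chr3:60795381-60795581 stood at 0.754 and 0.532 in KO acetate, against 0.0526 and 0.0343 in WT acetate (log2 3.69 ± 0.38, limma adjusted p = 0.000802). Untreated it stood at 0.313, 0.208 and 0.192 in KO, against 0.0261, 0.0387 and 0.0272 in WT. Both KO acetate values exceeded all KO untreated values, and the WT acetate values rest on 3 and 8 reads. The site at chr3:60790238-60790438 stood at 0.497 and 0.404 in KO acetate, against 0.0351 and 0.073 in WT acetate, from 95, 38, 2 and 17 reads, so the lowest value rests on very few reads. Its log2 difference of 2.98 ± 0.41 passed in limma (adjusted p = 0.0221) but did not without either KO library (0.322 without KO acetate 1, 0.0536 without KO acetate 3), with a range of 1.37e-13 to 0.322 over its alternatives. Another site, chr3:60762949-60763149, stood at 0.55 and 0.606 in KO acetate, against 0.158 and 0.21 in WT acetate (log2 1.63 ± 0.28, adjusted p = 0.199). Its log2 difference was 1.43 without WT acetate 1 and 1.83 without WT acetate 2. Each of those fits had 1 WT library, assumed to vary like the rest. With total signal scaling this site was called (limma adjusted p = 0.0371), as on deposited values and with cyclic loess, but not with median-of-ratios scaling.

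**Figure D4:**
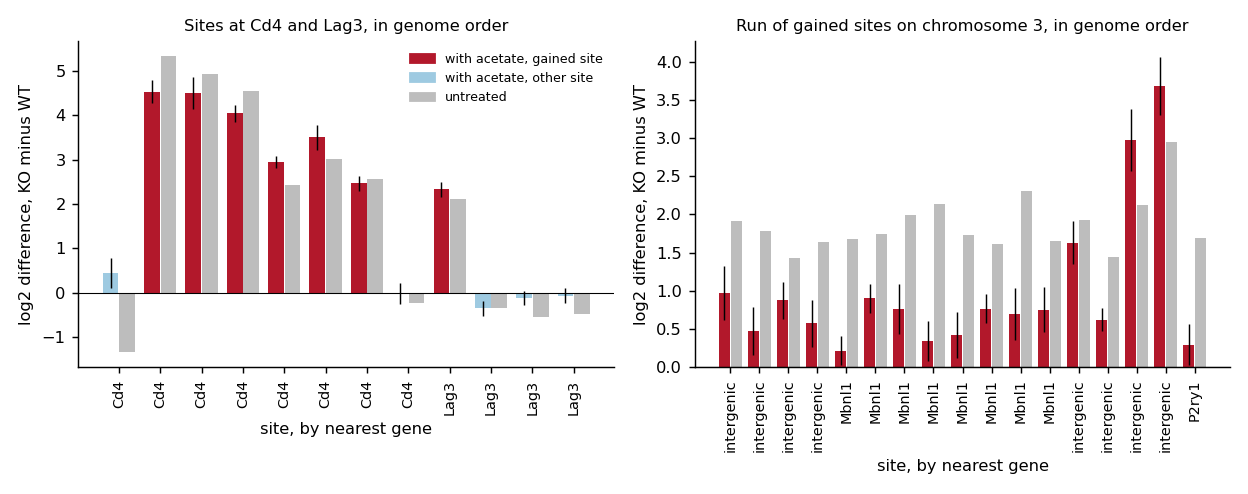
Log2 difference between KO and WT at the sites of Cd4 and Lag3 (left) and at the 17 gained sites of the longest run (right), in genome order and named by the nearest protein-coding gene within 50 kb. Untreated values are log2 ratios of group means, and acetate values are limma differences. Coloured bars are with acetate, with the limma standard error, and grey bars untreated, used by the rule; called differences with acetate run from 2.33 to 4.53 on the left and are 2.98 and 3.69 on the right.

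Many gained sites were neighbours in the table. In 682 runs of 2 or more stood 1917 of them (54.0%), and 1634 stood alone. No expected share was worked out for this. Neighbours in the table can lie far apart: a run of 8 sites on chromosome 5 spanned 9981 kb. Of the 65 runs of 5 or more, with 416 sites, 57 had a median acetate difference above 0 and 19 had every site above 0. The second longest (chr6:99781557-100084439) held 13 sites over 303 kb with no protein-coding gene within 50 kb, and medians of 0.20 with acetate and 1.90 untreated. In it 3 sites had both KO values above both WT values, against 35.5% of all gained sites and 13.8% of nuclear sites. There the site with the largest untreated ratio (chr6:99983344-99983544) stood at 1.08, 2.03 and 1.14 in KO untreated, against 0.157, 0.135 and 0.136 in WT untreated. Under acetate the levels were 0.0838 and 0.106 in KO, against 0.14 and 0.129 in WT, so KO was the lower one.

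The third longest (chr1:89015709-90204072) held 10 sites over 1188 kb at Sh3bp4, Agap1, Iqca and Ackr3, with medians of 0.46 with acetate and 1.81 untreated. In this run 6 sites had both KO acetate values above both WT values, against 35.5% of all gained sites and 13.8% of nuclear sites. Its Ackr3 promoter site stood at 0.922, 0.911 and 0.828 in KO untreated, against 0.261, 0.252 and 0.381 in WT untreated. The acetate levels were 0.461 and 0.574 in KO, against 0.386 and 0.352 in WT (log2 0.47 ± 0.24, not called). A compact run covered Cd70, the ligand of the co-stimulatory receptor CD27, and Tnfsf9, the ligand of 4-1BB: 8 sites over 42.8 kb (chr17:57111418-57154217), with medians of 0.31 with acetate and 1.59 untreated.

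Some genes had all or most of their sites in the set. Protein-coding genes within 50 kb were nearest to 2848 gained sites (80.2%), 2125 genes in all, of which 1626 had 1 gained site and 16 had 5 or more. All 8 sites of Mbnl1, all 7 of Cd70, all 6 of Dscaml1, a neuronal adhesion molecule, all 6 of Rgs6, a regulator of G protein signalling, and all 5 of Stk33 were gained. For Tshz2, a zinc finger gene, it was 6 of 7, for Asic2, an acid-sensing ion channel, 5 of 6, and for Hdac9 7 of 11. Other genes had as many gained sites but smaller shares, such as Ptk2 and Trps1 (6 of 12 each), Myo3b (5 of 10) and Fars2 (5 of 22). The Asic2 sites had a median acetate difference of 0.72. All 5 had both KO values above both WT values, against 35.5% of all gained sites and 13.8% of nuclear sites. Its site at chr11:81739087-81739287 stood at 1.3, 1.5 and 1.43 in KO untreated, against 0.105, 0.206 and 0.204 in WT untreated. With acetate it stood at 0.518 and 0.553 in KO, against 0.263 and 0.382 in WT (log2 0.74 ± 0.26, limma adjusted p = 1.0).

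In position, the gained sites lay away from gene ends. Within 1 kb of either end of a protein-coding gene were 139 (3.91%), against 24.8% of all nuclear sites, 4.63% of the mirror-rule sites and 12.5% of other sites among the weakest 20% with acetate. Inside a gene body, farther than 1 kb from its ends, were 1802 (50.7%), against 42.4% of all nuclear sites and 50.8% of other sites among the weakest 20%. More than 50 kb from any protein-coding gene were 703 (19.8%), against 8.1% of all nuclear sites, 16.6% of the mirror-rule sites and 9.28% of other sites among the weakest 20%. Wider than the usual 201 bp were 11 (0.31%), against 1.99% of all nuclear sites, 0.386% of the mirror-rule sites and 0.0727% of other sites among the weakest 20%. By chromosome, from 6.22% of sites (on 11 and 17) to 12.3% (on 1 and X) were gained. Of the sites with both KO acetate values above both WT values, 5.64% were near a gene end, against 2.97% of the other gained sites, and 20.3% were beyond 50 kb, against 19.5%.

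**Figure D5:**
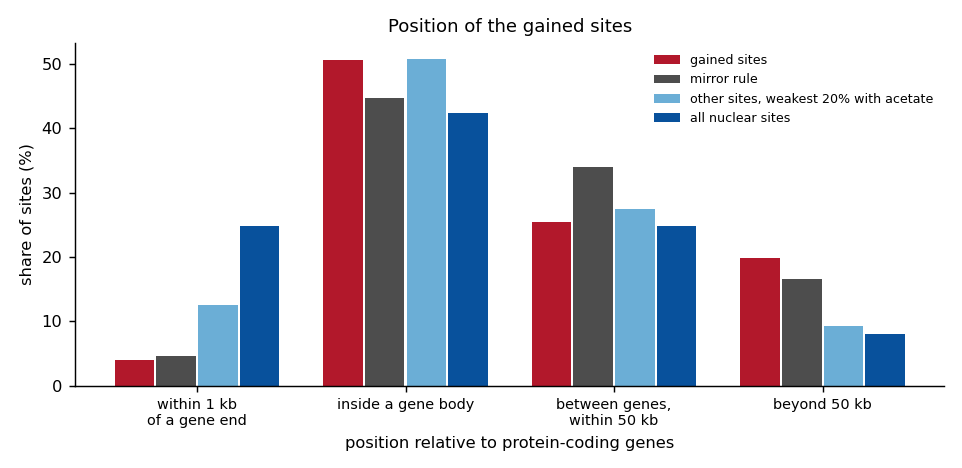
Share of sites (%) by position relative to protein-coding genes, for gained sites, sites of the mirror rule, other sites among the weakest 20% with acetate and all nuclear sites. Gained sites are at 3.91% near gene ends, where all nuclear sites are at 24.8%, and at 19.8% beyond 50 kb, where all nuclear sites are at 8.1%.

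Apart from Cd4, the largest untreated differences among the stronger gained sites were mostly far from protein-coding genes. Stronger means a mean level of at least 0.425 over all 10 libraries, so the high KO untreated values count towards it. Starts of other genes could be nearer: the site at chr13:83120428-83120628 shared 141 bases with the Gm33073 promoter window. With acetate their ratios of mean KO to mean WT ran from 0.707 to 1.66, against 7.81 to 14.3 untreated. The site at chr14:66431959-66432159, 70.3 kb from a protein-coding gene, stood at 1.72, 1.87 and 1.84 in KO untreated, against 0.176, 0.194 and 0.0748 in WT untreated. Its acetate values were 0.356 and 0.298 in KO, against 0.211 and 0.249 in WT. The site at chr8:26255255-26255455 stood at 1.02, 1.39 and 1.26 in KO untreated, against 0.085, 0.129 and 0.0816 in WT untreated. With acetate KO was the lower there, at 0.162 and 0.181, against 0.228 and 0.215 in WT. In Kif26b, a kinesin-family gene, the site at chr1:178641864-178642064 stood at 1.13, 1.32 and 1.32 in KO untreated, against 0.124, 0.155 and 0.0952 in WT untreated, and at 0.194 and 0.181 in KO acetate, against 0.175 and 0.202 in WT acetate. Its acetate groups overlapped.

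Outside the 2 called places, the largest acetate ratios among the stronger gained sites were at Nme7, Esr1 (oestrogen receptor alpha), Arnt (partner of HIF and of the aryl hydrocarbon receptor), Knl1 (a kinetochore scaffold), Atf7 (a transcription factor), Vmp1 (an autophagy protein) and Myo3b, and at 1 site with no protein-coding gene within 50 kb. None was called. The Esr1 site (chr10:4988726-4988926) stood at 0.377 and 0.383 in KO acetate, against 0.211 and 0.172 in WT acetate, a log2 difference of 0.97 ± 0.29. The Atf7 site (chr15:102529758-102529958) stood at 0.272 and 0.223 in KO acetate, against 0.0702 and 0.133 in WT acetate, a log2 difference of 1.29 ± 0.40. The site away from genes (chr15:60475368-60475568) stood at 0.251 and 0.255 in KO acetate, against 0.0702 and 0.146 in WT acetate, a log2 difference of 1.26 ± 0.40. Differences of the others ran from 0.89 at Nme7 and Vmp1 to 1.15 at Arnt. The choice by the largest acetate ratio fixed the direction at all of these sites.

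Near gene ends, the gained sites with the largest untreated ratios after 6330409D20Rik and Cd4 were at Olfr175, Lemd3, Tppp2, Pla1a and Il4i1b. The site near Lemd3, an inner nuclear membrane protein gene (chr10:120980342-120980542), stood at 2.9, 3.73 and 3.59 in KO untreated, against 0.719, 0.897 and 0.558 in WT untreated. Under acetate the levels were 1.29 and 1.01 in KO, against 1.19 and 1.07 in WT, which overlapped. The site at Il4i1b (chr7:44835472-44835672) stood at 2.49, 4.01 and 3.06 in KO untreated, against 0.725, 0.813 and 0.714 in WT untreated, and at 0.812 and 0.745 in KO acetate, against 0.702 and 0.918 in WT acetate. It too overlapped with acetate.

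Genes of T helper programmes held few gained sites. Of 178 sites at the 25 genes of a Th17 list, 6 were gained (3.37%, against 8.95% of nuclear sites), at Ahr, Batf, Maf and Rora. None was called with acetate, and their median acetate difference was -0.05. The site near Batf, an AP-1 factor that Th17 cells need (chr12:85664336-85664536), averaged 1.7 ± 0.397 in KO untreated, against 0.204 ± 0.0274 in WT untreated (SD, n = 3 each). These untreated values chose the site. With acetate it stood at 0.775 and 0.67 in KO, against 0.737 and 0.708 in WT, so both genotypes had more of it than untreated WT. The site near Ahr, the aryl hydrocarbon receptor (chr12:35566595-35566795), stood at 0.288 and 0.415 in KO acetate, against 0.175 and 0.27 in WT acetate.

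Of 140 sites at genes of other T helper fates, 3 were gained (2.14%, against 8.95% of nuclear sites), at Ifng, Il12rb2 and Il5. Their median acetate difference was -0.13, with no call. The site near Ifng, the Th1 cytokine (chr10:118477599-118477799), stood at 1.15, 1.17 and 1.23 in KO untreated, against 0.255, 0.323 and 0.361 in WT untreated. In acetate libraries it measured 0.398 and 0.309 in KO, against 0.228 and 0.296 in WT. At Il12rb2, a subunit of the IL-12 receptor, and near Il5, a Th2 cytokine gene, both KO acetate values lay below both WT values. In the list of T cell receptor and co-stimulation genes 8 of 157 sites were gained (5.1%, against 8.95% of nuclear sites). Of these, 7 were those called at Cd4 and Lag3, and the other was at Cd28.

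Enzymes of acetyl-CoA supply had 1 gained site of 43 (2.33%, against 8.95% of nuclear sites), in Pdhx, which holds the dehydrogenase complex together. It (chr2:103066814-103067014) stood at 0.434, 0.465 and 0.636 in KO untreated, against 0.118, 0.2 and 0.0884 in WT untreated, and at 0.267 and 0.298 in KO acetate, against 0.298 and 0.232 in WT acetate. Histone acetyltransferases and deacetylases had 10 of 97 sites gained (10.3%), close to the 8.95% of all nuclear sites. They lay at Hdac4, Hdac8, Hdac9 and Kat6a, with a median acetate difference of 0.09 and no call. Of these, 7 were in Hdac9, a class IIa deacetylase. Its site at chr12:34808243-34808443 stood at 1.49, 1.66 and 1.92 in KO untreated, against 0.255, 0.374 and 0.272 in WT untreated, and at 0.209 and 0.309 in KO acetate, against 0.175 and 0.292 in WT acetate.

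The shares of gained sites were larger at a list of synaptic and neuronal genes and at a list of muscle genes. Of 47 sites at the neuronal genes 15 were gained (31.9%, against 8.95% of nuclear sites), in 9 of the 11 genes with a site. Cntnap2, Grm7 (a glutamate receptor), Sox5 and Tenm4 were among them. Weak sites were often gained: of the weakest 20% of nuclear sites with acetate, 2427 were gained and 5504 were not. Level was not matched for these lists. With acetate 3 of the 15 had both KO values above both WT values, against 13.8% of nuclear sites and 35.5% of all gained sites. None had both below, and the median difference was 0.13, with no call. The Cntnap2 site (chr6:47259811-47260011), in a neuronal adhesion gene, stood at 0.843, 0.703 and 0.758 in KO untreated, against 0.0784, 0.11 and 0.0612 in WT untreated, and at 0.089 and 0.0957 in KO acetate, against 0.0526 and 0.146 in WT acetate. Of 12 sites at muscle genes 2 were gained (16.7%). The one near Myog, the gene of the muscle factor myogenin (chr1:134283001-134283201), stood at 2.31, 2.88 and 2.99 in KO untreated, against 0.523, 0.639 and 0.585 in WT untreated. Its acetate values were 1.13 and 1.14 in KO, against 0.965 and 1.13 in WT. The other, in Dmd, the dystrophin gene, was weaker, at 0.576 to 0.584 in KO untreated, against 0.0392 to 0.0952 in WT untreated.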

How the data were processed

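ATAC-seq of Th17 cells was deposited by the authors as 1 table of 39657 sites with 1 column per library (10 libraries). Per the submitters' processing notes the build was GRCm38 and the tools were DiffBind 3.6.1, DESeq, DESeq2, deepTools 3.5.1, Genrich, BWA 0.7.16a, Picard 2.10.9 and FastQC 0.11.5, listed with no roles. The deposited values are signal: within a tolerance of 0.001, 100% of each column's values were whole multiples of 1 step, taken as reads divided by a library factor, and no source used here gives how it was made. Reads behind a value were taken from that step. A stricter check of low values did not accept every column as whole reads, so read numbers are an inference and the count tests planned as alternatives to limma were not run. The columns WT 4 and KO acetate 3 carry numbers that no sample title has and were placed by group.

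Each library was divided by its median over sites. For the test it was then multiplied by the mean of the medians (146), and log2 of the value plus a pseudocount of 1 was fitted in R 4.3.3 by limma 3.58.1, with its trend and robust options, on the 4 acetate libraries alone, with no filter, and adjusted by Benjamini-Hochberg over all sites. The fit was tested on simulated data. Untreated log2 ratios were those of group means with no pseudocount, so they are not the same measure as the limma differences with acetate. Other tables and the figures were made in Python 3.11.15 with pandas 2.3.3, numpy 2.4.6, matplotlib 3.10.9 and scipy 1.17.1. Sites were named by the nearest protein-coding gene body within 50 kb. Nearness does not show that a site acts on a gene.

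The gained sites, gene lists and markers were chosen with earlier results of these data known. Sites were named if called with acetate; if among the 12 largest untreated ratios, the 12 largest acetate ratios, the 8 lowest acetate mean ratios or the 8 largest untreated ratios near gene ends, each at or above the members' median level, 0.425, over the 10 libraries and 1 site per gene; if in the 3 longest runs; if among the 3 sites next to the threshold on each side; or if among up to 5 per list. The Cd70 run, Klk1b9, the genes with most gained sites and the printed promoters were picked after their values were seen. Alternatives were other scalings, pseudocounts of 0.5 and 5, a filter on low values, 1 model of all 10 libraries, limma without trend and robust, other thresholds and each library left out.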

Additional observations from a re-analysis of the deposited data

Results flagged for a closer look

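At 16 of the 101 gained sites picked by the rules for naming sites, every KO value was above every WT value untreated and every KO value was below every WT value with acetate. Over all gained sites that was so at 207 (5.83%), against 15.8% of nuclear sites with KO below WT with acetate. The difference between the conditions was not tested, and none of the 16 was called with acetate. Of the 16, 7 were picked by the lowest acetate ratio, where the log2 difference with acetate was -0.97 at Tppp2 (chr14:51917523-51917723), -0.95 at Mreg, the melanoregulin gene (chr1:72202111-72202311), -0.72 at Itgb6, an integrin subunit (chr2:60711705-60711905), -0.65 at Hpf1, a partner of PARP enzymes (chr8:60902156-60902356), and -0.62 at Sntb1, a syntrophin (chr15:55710295-55710495). It was -0.72 and -0.60 at sites with no protein-coding gene within 50 kb (chr6:127390829-127391029 and chr1:126915301-126915501). At the other 9 it was -0.73 at Rora (chr9:69145584-69145784), a nuclear receptor of the Th17 programme, -0.49 at Hdac9 (chr12:34812023-34812223), -0.22 at Sh3bp4 (chr1:89108821-89109021), -0.18 near Il5 (chr11:53735030-53735230), -0.13 at Il12rb2 (chr6:67330397-67330597) and -0.07 at 6330409D20Rik. It was -0.48, -0.36 and -0.35 at sites with no protein-coding gene within 50 kb (chr6:99983344-99983544, chr8:26255255-26255455 and chr6:99866371-99866571). For the 7, their choice by the lowest acetate ratio fixed the direction with acetate, and for all 16 the choice of the gained sites fixed it untreated. The Mreg site stood at 0.199 and 0.17 in KO acetate, against 0.351 and 0.373 in WT acetate, and at 0.596, 1.02 and 0.919 in KO untreated, against 0.216, 0.31 and 0.116 in WT untreated.

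Signal at the 2 mitochondrial sites, which could not be gained sites, was higher in untreated KO than in any other library: the lowest KO untreated library had 1.18% of its signal there, and the highest WT untreated library 0.658%.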

How the results depend on the processing

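The number of gained sites was 972 with a ratio above 3 and 1545 on the values as deposited, 2927 to 3647 under the other thresholds and scalings, and 3551 to 3672 with 1 untreated library left out. On the values as deposited the gained sites had a median acetate difference of 0.07, with -0.15 over all sites, and 736 of them (20.7%, against 4.63% of nuclear sites) had both KO values above both WT values. With 1 acetate library left out, the median was 0.12 to 0.30, the count with KO above WT 1636 to 2192 (28.6 to 35.2% of nuclear sites met it then) and the count of called sites 8 to 116. The 116 came without WT acetate 2, which leaves the shallow WT acetate 1 as the only WT library, and 192 sites of the table were called then. Under the other scalings, pseudocounts, filter and models run, 7 to 11 gained sites were called. Of 115 values of the 9 called sites under alternatives, none reversed and 112 were still called. The other 3 were all at chr3:60790238-60790438, with adjusted p of 0.0738 without trend and robust, 0.322 and 0.0536. The filter on low values left out both called sites of chromosome 3. Outside chromosomes 3 and 6, an alternative chosen after seeing the data, no gained site was called. There 1085 of 3093 (35.1%, against 13.7% of nuclear sites) had both KO values above both WT values.

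No paired analysis was possible because the acetate columns are numbered 1 and 3 in KO and 1 and 2 in WT and share only 1 number. The planned count tests were not run. For 2 libraries against 2 the smallest exact permutation p is 0.333. WT acetate 1 had 13 reads at the median gained site. With 1 library left out, its group's lone library is assumed to vary like the others. Open chromatin beyond the listed sites was not analysed here.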
